A study of Homo sapiens with 9 samples.

Results

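Histone lysine demethylases and TET enzymes were examined in 786-0 cells through 10 genes, KDM2B, KDM3A, KDM4A, KDM4B, KDM4C, KDM5B, KDM5C, KDM6B, TET1 and TET3, out of 58735 genes in the count table. They were taken by name as part of a family of related enzymes, with earlier results of these data known. Each was found as a single row by its Ensembl identifier. These are clear cell renal cell carcinoma (ccRCC) cells which, according to the study's methods, are VHL defective and carry an inactivating mutation in HIF1α, so that HIF2α is expressed constitutively. RNAseq covered untreated parental cells (WT), WT cells given 10 μM of PT2385, an antagonist of HIF2α, for 48 h, and untreated cells of the same line with genotype hif2a KO (KO), all kept at 21% oxygen for 48 h, with 3 replicates of each. The VHL and HIF1α defects are shared by all 3 groups, and no vehicle is named for the untreated cells. How the KO cells were made, and whether they are 1 clone, is not described, so loss of HIF2α and the derivation of these cells cannot be told apart. Nothing states that the replicates came from separate cultures, and the p-values measure only the spread between these libraries, which may be technical.

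The JmjC histone demethylases and the TET enzymes are dioxygenases that use molecular oxygen, ferrous iron and 2-oxoglutarate, the same needs as the prolyl hydroxylases that mark HIFα for VHL. The demethylases remove methyl groups from lysines of histone H3, and the TET enzymes oxidise 5-methylcytosine in DNA to 5-hydroxymethylcytosine. Several of the genes, KDM3A, KDM4B and KDM4C above all, are widely described as hypoxia-inducible, and KDM5C is one of the chromatin genes recurrently mutated in ccRCC. VHL loss gives such cells a standing HIF signal without lack of oxygen. RNA counts measure transcript levels, not enzyme activity or methylation.

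Between 11881000 and 14730081 reads per library were counted on genes, and scaling factors lay between 0.988 and 1.02. EPAS1, which encodes HIF2α, had 256 ± 20.0 CPM (read counts relative to the scaled library size) in WT, 239 ± 16.9 with PT2385 and 22.1 ± 2.52 in KO (SD, n = 3), and its counts in the KO libraries were 262, 360 and 307. All 8 renal carcinoma markers checked were counted in every library (from 146 reads for PAX2 to 66723 for VIM). Of these, 3 were higher and 1 lower with PT2385 (3.08% and 4.62% of all tested genes). In KO against WT 3 were higher and 2 lower (14.7% and 15.4%), and in KO against PT2385 2 and 2 (8.47% and 10.3%). CDH6 was among the higher ones (log2 fold change 1.38 with PT2385 and 1.03 in KO against WT) and PAX2 among the lower ones (-0.44 and -1.30). Of 10 immune, endothelial and fibroblast markers, 9 had at most 3 counts in any library. The other one, LUM, had 15 to 60, and the summed markers came to 15 to 24 counts in WT, 30 to 40 with PT2385 and 35 to 62 in KO, while CD3E, PECAM1, VWF and DCN were at 0 in all 9 libraries. LUM was higher in KO than in WT (log2 fold change 1.16, adjusted p = 0.0144), and its part in the results was not tested. KO replicate 3 stood farthest from the other libraries of its group, with an SD of 0.259 on the log2 scale over 11487 genes, against 0.148 to 0.240 elsewhere.

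Promoters were read for the letters ACGTG and GCGTG, the core of the HIF binding motif, on either strand. RefSeq windows from 250 bases before to 50 after a transcription start were found for all 10 genes (18 windows). At least 1 match was present in 13 of the 18 windows (72.2%) and in 17012 of all 35116 promoter windows (48.4%), and 9 of the 10 genes had a match in at least 1 window. Only KDM5C had none among the 10. Windows are not separate units, since KDM2B and others have several and those of KDM3A overlap. No share per gene was counted over all genes, so the count of 9 of the 10 has no background. The sequences shown are those of KDM3A, KDM4B and KDM4C, named above, and of KDM5B, which had the largest change of the 10. They run 5′ to 3′ on the strand of the gene in GRCh38.p14, with matches in capitals. The letters CACGTG hold the motif on both strands at once and are also the E-box of bHLH factors. The first is the whole stretch of 250 bases before the start of KDM4B (chromosome 19, 4968863 to 4969112, plus strand), in which matches end 236, 220 and 73 bases before the start.
KDM4B: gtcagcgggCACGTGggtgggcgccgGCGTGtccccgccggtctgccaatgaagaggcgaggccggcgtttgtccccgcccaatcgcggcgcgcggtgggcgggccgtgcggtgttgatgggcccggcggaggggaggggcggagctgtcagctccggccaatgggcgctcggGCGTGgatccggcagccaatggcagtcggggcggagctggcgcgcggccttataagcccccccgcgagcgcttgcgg
The others are the matches with 10 bases on each side, for KDM3A (chromosome 2, 86441335 to 86441359, plus strand, ending 22 bases before the start), KDM5B (chromosome 1, 202808471 to 202808495, minus strand, 60 bases before) and the pair nearest to the start of KDM4C (chromosome 9, 6757900 to 6757925 and 6757932 to 6757957, plus strand, 58 and 26 bases before).
KDM3A: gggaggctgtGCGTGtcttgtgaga
KDM5B: gaggcgcacgGCGTGggcttgcggc
KDM4C, farther: tttgtaagccCACGTGactcaccaag
KDM4C, nearer: ccccagcggtCACGTGacggcgcgcg
The stretches of KDM3A and KDM5B hold a GCGTG, those of KDM4C a CACGTG, and that of KDM4B holds both. A GCGTG of KDM4C that ends 92 bases before the start is not shown. A match describes these letters and was not tested as a binding site.

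All 10 genes were expressed, and all passed the filter on low counts in each comparison. Per kb of annotated exon, KDM5C had the highest level in WT cells, 12.7 CPM per kb, followed by TET3 with 9.32, KDM4A with 7.28, KDM2B with 5.44, KDM3A with 4.84, KDM4B with 4.29, KDM6B with 3.22, KDM4C with 2.88, KDM5B with 1.60 and TET1 with 0.231. No neighbours in that order overlapped across the 3 WT replicates. With PT2385, KDM6B (3.97) and KDM4B (3.75) overlapped, as did KDM4C (2.55) and KDM5B (2.35). In KO the pairs KDM4A and TET3, KDM4B and KDM2B, KDM2B and KDM3A, and KDM6B and KDM4C overlapped. KDM5C stayed the highest and TET1 the lowest in each group. Exon lengths are the union of all annotated transcripts, some of which may not be used in these cells, so the order is approximate.

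**Figure D1:**
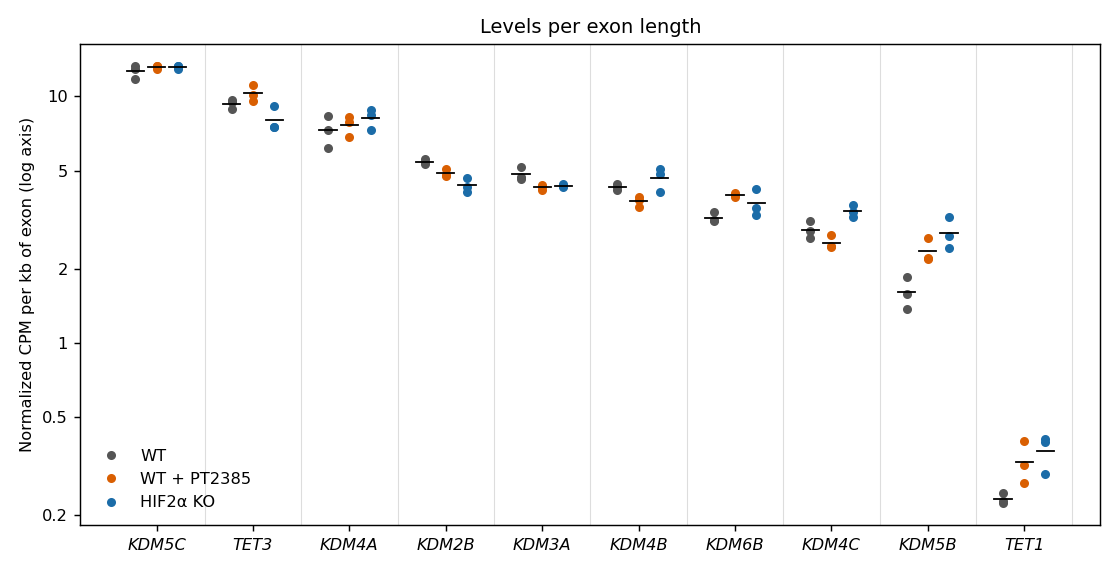
Normalized CPM per kb of exon (log axis) for the 10 genes, with 1 point per library and a bar for the mean of 3 replicates in WT, WT with PT2385 and HIF2α KO. KDM5C lies near 13 CPM per kb in all 3 groups and TET1 below 0.5, while KDM5B is separated between WT and both other groups.

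Upon PT2385 treatment KDM5B and KDM6B were called higher and none of the 10 genes was called lower (edgeR quasi-likelihood test, adjusted p under 0.05). This is 2 of 10 higher, where 3.08% of all 15089 tested genes were higher and 4.62% were lower. In 6 of the 10 genes the replicates of the groups did not overlap, against 26.1% of all genes. An unadjusted p under 0.05 was found for 6 of the 10 and for 21.2% of all genes. The replicate number, which the test above did not use, linked the libraries of this comparison. Once it was added as a block, 3 of the 10 were called (15.3% of all genes). The further one was KDM4B, which was lower (log2 fold change -0.20, adjusted p = 0.0424 with the block). Log2 fold changes of the 10 lay between -0.20 and 0.55 with a median of 0.06, beside 0.00 for all genes.

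In KO against WT, KDM5B, TET1 and KDM4C were higher and KDM2B was lower. This is 3 of 10 higher and 1 of 10 lower, where 14.7% of 15192 genes were higher and 15.4% were lower. Groups did not overlap for 5 of the 10 genes, against 43.8% of all genes, which is near the background. Under the replicate block 5 of 10 were called and 36.2% of all genes. The median log2 fold change was 0.16, beside 0.00 for all genes.

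KO was then set against PT2385 directly, which tests the difference between the effects of knockout and drug, since both share the same WT libraries. KDM4B and KDM4C were higher in KO than with PT2385, and TET3 was lower, while 8.47% of 15402 genes were higher and 10.3% lower. Groups did not overlap for 4 of the 10, against 35.4% of all genes. Under the replicate block the count was again 3 of 10 (24.6% of all genes). Each group had 3 replicates, for which the smallest exact two-sided permutation p of a single gene is 0.1.

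**Figure D2:**
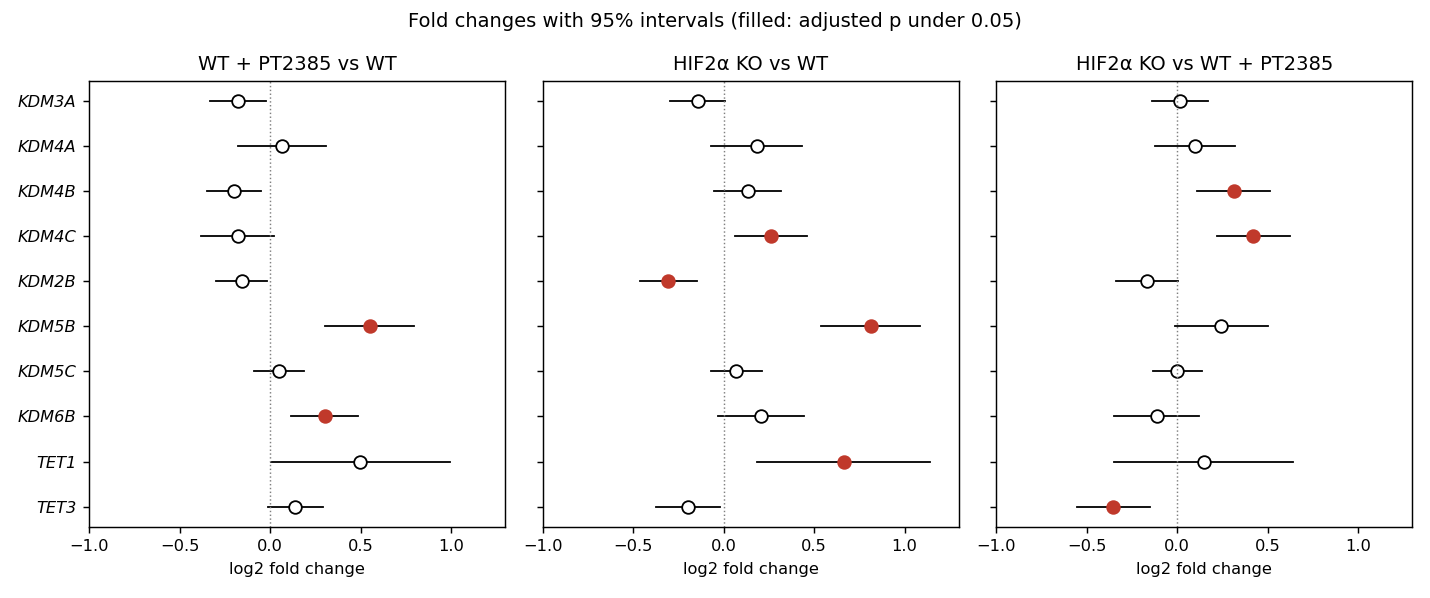
Log2 fold change of each gene (x axis) with its 95% interval in the 3 comparisons, filled where the adjusted p was under 0.05 with edgeR. KDM5B is at 0.55 with PT2385 and 0.81 in KO, and KDM4C goes from -0.18 with PT2385 to 0.26 in KO.

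KDM5B (ENSG00000117139, chromosome 1, 202724495 to 202808487) demethylates trimethylated and dimethylated lysine 4 of histone H3, the mark of active promoters. Its CPM was 45.9, 39.4 and 34.2 in the WT replicates, 66.5, 54.7 and 54.4 with PT2385, and 67.5, 80.3 and 60.2 in KO. Every PT2385 and every KO library lay above every WT library. It rose by 46.4% with PT2385, or 0.55 on the log2 scale (standard error 0.112, 95% interval 0.31 to 0.79, adjusted p = 0.0105). The call was lost without WT replicate 2 (adjusted p = 0.0601), with the fold change at 0.55 there. In KO it rose by 75.6%, or 0.81 (standard error 0.124, 95% interval 0.54 to 1.09, adjusted p = 5.42e-04), and the call remained with each library left out in turn (0.69 to 0.93). KO and PT2385 overlapped, and their difference was 0.24 (95% interval -0.01 to 0.50, adjusted p = 0.185).

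KDM5C (ENSG00000126012, chromosome X, 53176283 to 53225422) acts on the same mark. It had 164, 159 and 145 CPM in WT, 159, 163 and 164 with PT2385, and 163, 164 and 160 in KO. The groups overlapped in all 3 comparisons. The log2 fold change was 0.05 with PT2385 (95% interval -0.09 to 0.19) and 0.07 in KO (-0.07 to 0.21), and KO differed from PT2385 by 0.00 (-0.14 to 0.14). The ratio of KDM5B to KDM5C within a library does not depend on scaling. Per exon length it was 0.126 ± 0.0114 in WT, 0.179 ± 0.0244 with PT2385 and 0.211 ± 0.0285 in KO (SD, n = 3). It was higher in each of the 6 libraries with drug or knockout than in any WT library.

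**Figure D3:**
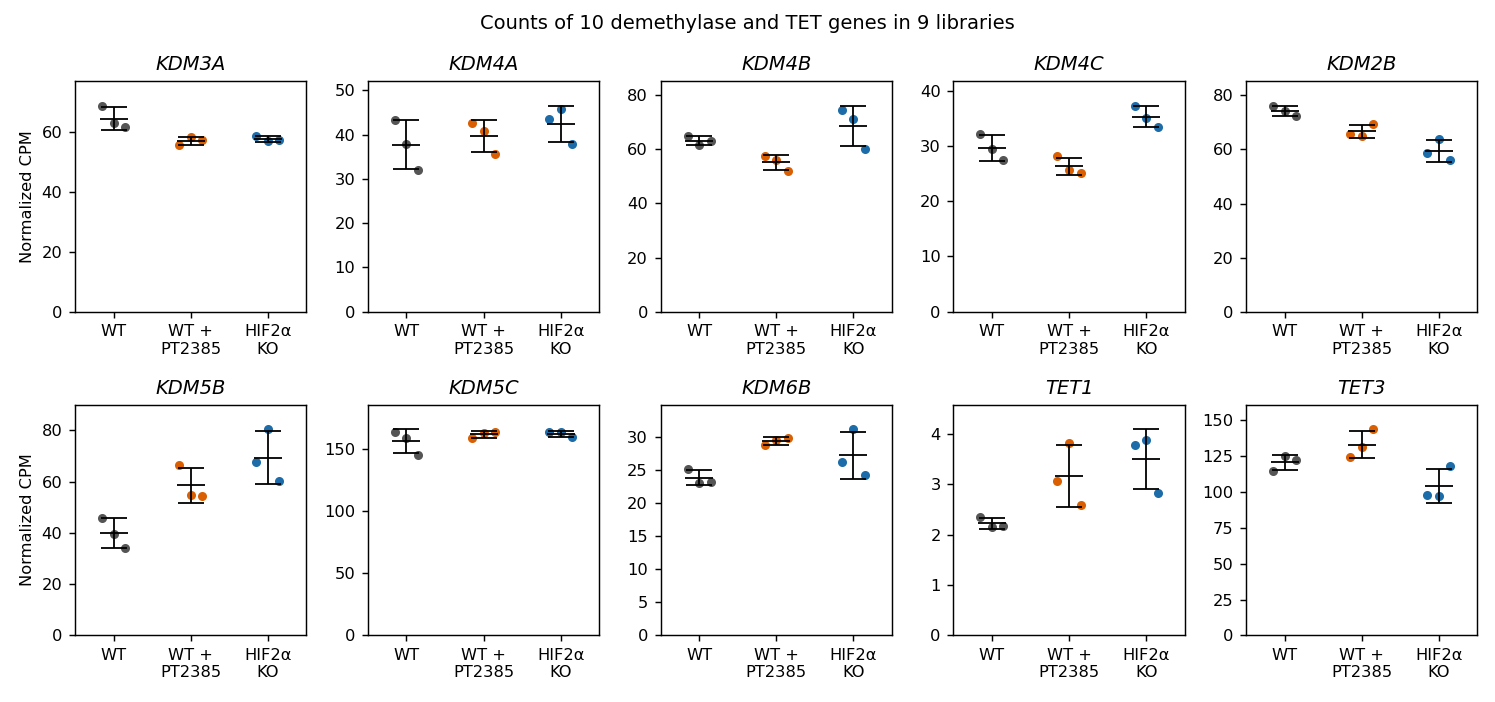
Normalized CPM of each of the 10 genes in 9 libraries (1 point per library, y axes from 0), with the mean and SD of 3 replicates as bars. KDM5B points with PT2385 (54.4 to 66.5) and in KO (60.2 to 80.3) all lie above WT (34.2 to 45.9), and TET3 is higher with PT2385 than in KO.

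KDM3A (ENSG00000115548, chromosome 2, 86440647 to 86492716) removes mono- and dimethylation from lysine 9 of histone H3. It had 68.7, 62.8 and 61.5 CPM in WT, 55.4, 58.3 and 57.1 with PT2385, and 58.7, 56.9 and 57.4 in KO. All 6 libraries with drug or knockout lay below the WT libraries, and by little. The log2 fold change was -0.18 with PT2385 (95% interval -0.33 to -0.03, adjusted p = 0.167) and -0.14 in KO (-0.30 to 0.01, adjusted p = 0.145), so neither passed the test. KO and PT2385 differed by 0.02 (-0.14 to 0.17).

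KDM4A, KDM4B and KDM4C act on trimethylated lysine 9 and lysine 36 of histone H3. KDM4A (ENSG00000066135, chromosome 1, 43650149 to 43705518) had 43.2, 37.8 and 32.1 CPM in WT, 42.6, 40.8 and 35.5 with PT2385, and 43.6, 45.8 and 37.9 in KO, and its groups overlapped throughout. Its log2 fold changes of 0.07 with PT2385 and 0.18 in KO did not pass the test (adjusted p = 0.790 and 0.263). KDM4A shares 473 exon bases with KDM4A-AS1 on the opposite strand, a gene with 517 counts in 9 libraries against 4712 for KDM4A, and whether strand was used in counting is not given in the sources used here. KDM4A-AS1 was lower with PT2385 (-0.68, adjusted p = 0.0361) and had -0.62 in KO (adjusted p = 0.0516). A protein-coding gene on the same strand (ENSG00000284989, 1 count in 9 libraries) shares 2086 exon bases with KDM4A. The part of this overlap in the level of KDM4A was not tested.

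KDM4B (ENSG00000127663, chromosome 19, 4969113 to 5153598) had 64.8, 61.4 and 63.1 CPM in WT, 57.5, 56.0 and 52.1 with PT2385, and 74.5, 71.1 and 60.1 in KO. PT2385 libraries lay below those of both other groups, and KO replicate 3 lay below the WT libraries while the other KO replicates lay above them. The log2 fold change with PT2385 was -0.20 (95% interval -0.35 to -0.05, adjusted p = 0.116), and it passed under the replicate block (-0.20, adjusted p = 0.0424). In KO it was 0.13 (-0.05 to 0.32, adjusted p = 0.270), and without KO replicate 3 it was 0.22 (adjusted p = 0.0244). KO was higher than PT2385 by 0.31 (standard error 0.0917, adjusted p = 0.0374). That call was lost without KO replicate 1 (adjusted p = 0.162), KO replicate 2 (0.105), PT2385 replicate 2 (0.105) or PT2385 replicate 3 (0.0901), and with library-size scaling (0.0513).

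KDM4C (ENSG00000107077, chromosome 9, 6720863 to 7175648) had 32.2, 29.4 and 27.5 CPM in WT, 28.1, 25.6 and 25.2 with PT2385, and 37.3, 35.1 and 33.4 in KO. Every KO library was above every other library, whereas PT2385 and WT overlapped. With PT2385 the log2 fold change was -0.18 (95% interval -0.38 to 0.02, adjusted p = 0.301), and in KO it rose by 19.8%, or 0.26 (0.06 to 0.46, adjusted p = 0.0476). The rise in KO lost its call without WT replicate 2 (adjusted p = 0.143), WT replicate 3 (0.173), KO replicate 1 (0.152) or KO replicate 2 (0.0820), and with DESeq2 (0.0868), library-size scaling (0.0595), no filter (0.0642) or a single model of the 9 libraries (0.0502). KO exceeded PT2385 by 0.42 (standard error 0.0908, adjusted p = 0.00789), and here the call held with each library left out (adjusted p from 0.00747 to 0.0457).

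KDM2B (ENSG00000089094, chromosome 12, 121429096 to 121581023) demethylates lysine 36 of histone H3 and carries a CXXC domain that brings a Polycomb complex to CpG islands. It had 76.1, 74.1 and 72.3 CPM in WT, 65.6, 65.0 and 69.3 with PT2385, and 58.7, 63.7 and 55.9 in KO. The groups were stepped without overlap, WT highest and KO lowest. It fell by 19.1% in KO (log2 fold change -0.31, standard error 0.0707, adjusted p = 0.00720), and the call held with each library left out (-0.36 to -0.26). With PT2385 the value was -0.16 (95% interval -0.30 to -0.02, adjusted p = 0.188), and KO against PT2385 gave -0.17 (-0.34 to 0.00, adjusted p = 0.169). KDM2B shares 439 exon bases with RNF34 on the opposite strand, which had log2 fold changes of -0.07 with PT2385 and -0.06 in KO. It also shares 232 with KDM2B-DT on the opposite strand, a gene with 119 counts in 9 libraries, which was lower with PT2385 (-1.45, adjusted p = 0.0220) and had -0.74 in KO (adjusted p = 0.0725). The part of these overlaps in the KDM2B values was not tested.

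KDM6B (ENSG00000132510, chromosome 17, 7834217 to 7854796) removes trimethylation from lysine 27 of histone H3, the Polycomb mark. It had 25.1, 23.1 and 23.2 CPM in WT, 28.8, 29.5 and 29.9 with PT2385, and 26.1, 31.1 and 24.3 in KO. Every PT2385 library was above WT, and the KO libraries spanned both ranges. It rose by 23.2% with PT2385 (log2 fold change 0.30, standard error 0.0840, adjusted p = 0.0493), at the edge of the threshold. Under the replicate block the adjusted p was 0.0214, but the call was lost with any 1 of the 6 libraries left out (0.0635 to 0.181) and with DESeq2 (0.113), no filter (0.0670), at least 10 counts in every library (0.0501) or a single model of the 9 libraries (0.0996). In KO the value was 0.21 (95% interval -0.03 to 0.44, adjusted p = 0.184), and KO differed from PT2385 by -0.11 (-0.35 to 0.12).

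TET1 (ENSG00000138336, chromosome 10, 68560337 to 68694487) was the only scarce one of the 10, with 28, 26 and 26 reads in WT, 38, 51 and 37 with PT2385, and 49, 56 and 41 in KO. This corresponds to 2.22 ± 0.111, 3.16 ± 0.619 and 3.50 ± 0.589 CPM (SD, n = 3), with all 6 libraries with drug or knockout above WT. In KO it rose by 58.4% (log2 fold change 0.66, 95% interval 0.19 to 1.14, adjusted p = 0.0390). The call remained only without KO replicate 3 (adjusted p = 0.0161) and was lost without WT replicate 1 (0.0763), WT replicate 2 (0.117), WT replicate 3 (0.102), KO replicate 1 (0.110) or KO replicate 2 (0.117), and with DESeq2 (0.127). With PT2385 the log2 fold change was 0.50 (0.01 to 0.99, adjusted p = 0.231). KO and PT2385 differed by 0.15 (-0.35 to 0.64), an interval too wide at this depth to show whether they differ.

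TET3 (ENSG00000187605, chromosome 2, 73984910 to 74108176) held most of the TET counts of this pair. It had 115, 125 and 123 CPM in WT, 124, 131 and 144 with PT2385, and 97.6, 97.5 and 118 in KO. WT overlapped with both other groups, but every KO library was below every PT2385 library. Neither the value of 0.14 with PT2385 (95% interval -0.01 to 0.29, adjusted p = 0.288) nor that of -0.20 in KO (-0.37 to -0.02, adjusted p = 0.0909) passed the test, and the latter did without KO replicate 3 (-0.29, adjusted p = 0.00345), without a filter on low counts (adjusted p = 0.0488) or under the replicate block (-0.20, adjusted p = 0.0346). KO was 21.7% lower than PT2385 (log2 fold change -0.35, standard error 0.0917, adjusted p = 0.0207). That call was lost without KO replicate 1 (0.105), KO replicate 2 (0.0764), PT2385 replicate 2 (0.0764) or PT2385 replicate 3 (0.0707), as adjusted p. TET3 shares 390 exon bases with a lncRNA on the same strand (ENSG00000235499, 490 counts in 9 libraries against 14067 for TET3). This lncRNA was lower in KO than in WT (-0.82, adjusted p = 0.00801) and had -0.61 in KO against PT2385 (adjusted p = 0.0633). The part of this overlap in the TET3 values was not tested. The ratio of TET1 to TET3 per exon length was 0.0249 ± 0.00239 in WT, 0.0322 ± 0.00750 with PT2385 and 0.0461 ± 0.0120 in KO (SD, n = 3). Every KO library was above WT, and PT2385 replicate 3 (0.0243) lay within the WT range.

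For the 7 genes called in at least 1 comparison, the genes with the most similar profile were sought among 10107 others with at least 100 counts on average, by Pearson's r of log2 CPM over the 9 libraries. KDM5B was followed most closely by FAM114A1 (r = 0.974), LGR4 (0.970) and NCKAP5L (0.964). For KDM2B these were DSCAML1 (0.986), CDIPT and FXYD2, for KDM4C SLC35F5 (0.981), NME7 and DNAJB2, and for KDM4B an unnamed gene (ENSG00000261799, 0.960), H2BC20P and SLC2A3. TET3 was nearest to WDR62 (0.980), TNFRSF12A and DNAJA3, KDM6B to CA2 (0.967), ZSCAN32 and PIK3R3, and TET1 to TSC22D1 (0.964), LDAH and UBA7. These libraries share groups and replicate numbers, and the values are a description of the best of many candidates.

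Other enzymes around the same marks were counted from lists of related genes, to be read against the shares of all tested genes, which were 3.08% higher and 4.62% lower with PT2385, 14.7% and 15.4% in KO against WT, and 8.47% and 10.3% in KO against PT2385. Of 17 tested JmjC proteins outside the 10, TET2 and LSD demethylases (18 listed), 2 were higher and 0 lower with PT2385, the H3K9 demethylase PHF8 (0.30, adjusted p = 0.0185) and KDM1A (LSD1, 0.23, adjusted p = 0.0399), and under the replicate block 3 were higher and 2 lower. In KO 2 were higher and 1 lower, namely KDM1A (0.28, adjusted p = 0.00657), the PRC2 cofactor JARID2 (0.36, adjusted p = 0.0138) and KDM8, which went from 4.70 ± 0.458 to 2.10 ± 0.252 CPM (SD, n = 3, adjusted p = 0.00126). These 3 of 17 are a smaller share than the 14.7% higher and 15.4% lower of all genes together. The replicate block again gave 2 higher and 1 lower in KO, beside 36.2% of all genes called. KDM8 was also the only gene of this list called between KO and PT2385 (-0.85, adjusted p = 0.0455). It was scarce, which limits its values. The list's median log2 fold change was 0.01 with PT2385 and 0.04 in KO, close to the 0.00 of all genes.

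Of 23 histone lysine methyltransferases, 0 were higher and 7 lower in KO, beside the 14.7% and 15.4% of all genes, with a median of -0.07. With the replicate block these counts in KO were 0 and 8, beside 36.2% of all genes called. The smallest p belonged to SMYD2 (-0.55, adjusted p = 5.80e-04), the H3K36 methyltransferase NSD2 (-0.38, adjusted p = 0.00102) and the H3K4 methyltransferase SETD1A (-0.43, adjusted p = 0.00143). With PT2385 1 was higher, EHMT2, which writes H3K9 dimethylation (0.32, adjusted p = 0.0198), and 1 was lower, NSD2 (-0.21, adjusted p = 0.0438), while the replicate block gave 2 and 2. In KO against PT2385 0 were higher and 4 lower, with SMYD2 (-0.48), the H3K79 methyltransferase DOT1L (-0.40) and SETD1A (-0.42) first by p.

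**Figure D4:**
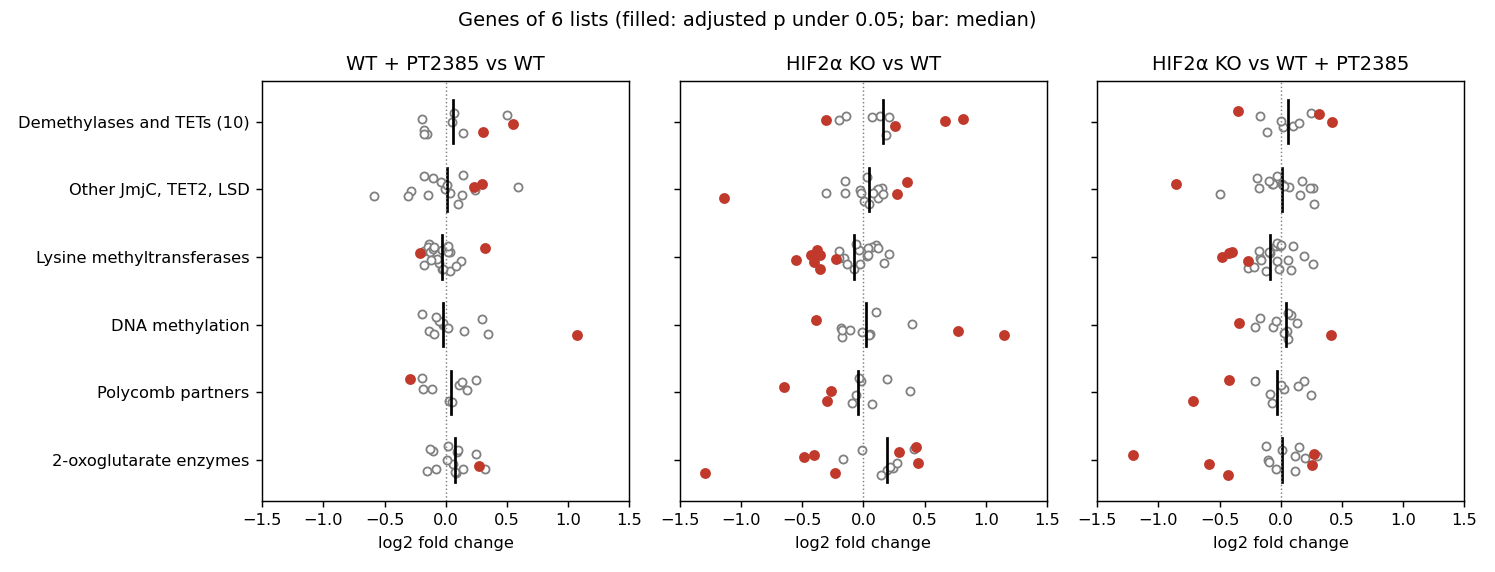
Log2 fold change (x axis) of every tested gene in 6 lists for the 3 comparisons, filled where the adjusted p was under 0.05, with the list median as a bar and a random vertical offset within each list. In KO against WT the 7 called lysine methyltransferases all lie below 0, and IDH2 is the lowest of the 2-oxoglutarate enzymes at -1.29.

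Among 12 genes of DNA methylation and its repair, 1 was higher and 0 lower with PT2385, the de novo methyltransferase DNMT3A, which went from 1.67 ± 0.550 to 3.54 ± 0.701 CPM (SD, n = 3, adjusted p = 0.0352), and under the replicate block 3 were higher and 1 lower. In WT DNMT3A was scarcer than TET1, which had 2.22 CPM, so its values are limited by depth. In KO 2 were higher and 1 lower. DNMT3A reached 3.68 ± 0.881 CPM (adjusted p = 0.0111), the thymine glycosylase MBD4 had a log2 fold change of 0.77 (adjusted p = 8.58e-05) and the chromatin remodeller HELLS one of -0.39 (adjusted p = 0.00757). In the main test this count was near the background of 14.7% higher and 15.4% lower. Under the replicate block 3 were higher and 4 lower in KO, beside 36.2% of all genes called in either direction. The list's median was -0.02 with PT2385 and 0.02 in KO. Between KO and PT2385, MBD4 was higher (0.41) and TDG, which excises oxidised methylcytosine made by TET enzymes, was lower (-0.34, adjusted p = 0.0197).

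Of 10 Polycomb partners, 0 were higher and 3 lower in KO, beside 14.7% and 15.4% of all genes, with a median log2 fold change of -0.05. With the replicate block 1 was higher and 3 were lower in KO, beside 36.2% of all genes called. RNF2, the RING1B ubiquitin ligase of PRC1, fell from 55.1 ± 1.44 to 34.9 ± 1.33 CPM (SD, n = 3, log2 fold change -0.65, adjusted p = 4.98e-05). BCOR, a subunit of the complex that KDM2B recruits, had -0.30 (adjusted p = 0.0135), and SUZ12 of PRC2 had -0.26 (adjusted p = 0.0299). RNF2 and BCOR were also lower in KO than with PT2385 (-0.72 and -0.43). With PT2385 only RYBP was called, at -0.29 (adjusted p = 0.0296).

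Enzymes that make or use 2-oxoglutarate, succinate and fumarate, the substrate and inhibitors of these dioxygenases, numbered 15, all tested. In KO 3 were higher and 4 lower, beside 14.7% and 15.4% of all genes, with a median log2 fold change of 0.20. Under the replicate block 6 were higher and 5 lower in KO, beside 36.2% of all genes called in either direction. Mitochondrial IDH2 fell from 74.8 ± 2.68 to 30.2 ± 4.04 CPM (SD, n = 3, log2 fold change -1.29, adjusted p = 2.28e-06), fumarate hydratase (FH) had -0.40 (adjusted p = 6.26e-04) and OGDH had 0.43 (adjusted p = 5.81e-04). With PT2385 1 was higher and 0 lower (3.08% and 4.62% of all genes), SDHB (0.27, adjusted p = 0.0433), and the replicate block added 1 lower. IDH2 (-1.21), IDH3A (-0.58) and FH (-0.43) were the 3 lower genes in KO against PT2385, where 2 were higher (10.3% and 8.47% of all genes).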

How the data were processed

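The authors deposited raw counts of reads per gene for 9 libraries, and 0 columns were left unmapped. Per the labels and the study's methods, reads were trimmed with cutadapt, aligned with STAR to GRCh38 (hg38) and counted with featureCounts. Versions, annotation release and strandedness are not given in the sources used here. Identifiers were paired with symbols, positions and exon lengths by GENCODE, which matched 58207 of 58735 genes. Each pair of groups was fitted on its own with edgeR 4.0.16 in R 4.3.3 (filterByExpr with a minimum of 10 counts, TMM, quasi-likelihood F test, Benjamini-Hochberg adjustment over all tested genes). A gene was called at an adjusted p under 0.05. Standard errors are the log2 fold change divided by the square root of F, and CPM are scaled over all 9 libraries. On simulated data, 86.0%, 83.0% and 78.0% of 2-fold and 68.0%, 56.0% and 50.0% of 1.5-fold changes were recovered (PT2385 against WT, KO against WT and KO against PT2385), and 7.23%, 4.79% and 5.88% of calls were false. The simulation changed fewer genes than were called in the data, as many up as down, and held no replicate effect. These rates may therefore not hold for the data.

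The replicate number was taken to pair WT and PT2385 libraries, because deviations from the group means of same-numbered libraries correlated at 0.404, 0.104 and 0.387 over 11487 genes. Named genes are the 10, EPAS1, up to 3 called genes per list and comparison by smallest p, and 3 genes of similar profile for each called member. Single other genes were named after their values were seen. The members and lists were chosen with earlier results of these data known. Alternatives were DESeq2 1.42.0, other scalings and filters, the replicate block, a single model of 9 libraries, a threshold of 0.01 and leaving out each library. For single genes of the other lists only the main fit and the replicate block were recorded, so their calls had fewer checks. Promoter sequences are from RefSeq on GRCh38.p14.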

Additional observations from a re-analysis of the deposited data

How the results depend on the processing

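Of 420 fold changes of the 10 genes under the alternatives other than the threshold of 0.01, 381 kept their side of the threshold, 34 lost their call, 5 gained one and 0 called values changed direction. Only genes called in the main fits (2 with PT2385, 4 in KO against WT and 3 in KO against PT2385) could lose a call. Most of the 381 were never called, so they do not measure how stable the calls are. With PT2385 the 2 genes called higher became 1 with DESeq2, without a filter, with at least 10 counts in every library and in a single model, 0 at an adjusted p under 0.01, and 0 to 1 with a library left out, and with the replicate block 1 was called lower instead of 0. All genes called (1162) became 2305 with the replicate block, 516 at 0.01 and 574 to 1451 with a library left out. In KO against WT the 3 genes called higher became 1 with DESeq2, 2 with library-size scaling, 1 at 0.01 and 1 to 4 with a library left out. KDM4C also lost its call without a filter and in a single model. The 1 called lower became 2 without a filter, 2 with the replicate block (TET3, adjusted p = 0.0346) and 1 to 2 with a library left out, while all genes (4566) became 2788 at 0.01. Smaller changes in the number of all genes called are not listed here. In KO against PT2385 the 2 called higher became 1 with library-size scaling, 1 at 0.01 and 1 to 2 with a library left out, the 1 called lower became 0 at 0.01 and 0 to 1 with a library left out, and all genes (2897) became 1657 at 0.01 and 1836 to 3190 with a library left out. Apart from the stricter threshold, which can only remove calls, the cause of these changes was not tested. Leaving out a library did not always lower the number of calls. In the KO comparisons same-numbered libraries of replicates 1 and 3 correlated at 0.279 and 0.419 with WT, and at 0.307 and 0.374 with PT2385. Those of replicate 2 correlated at only 0.0327 with WT and 0.0624 with PT2385. The replicate number thus linked KO libraries in part, and they were not taken as paired throughout. Counts of 26 to 56 reads limit TET1.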
